A study of Mus musculus with 37 samples.

Results

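Sarcolipin (Sln) and 9 other genes that move calcium in heart muscle were followed in E10.5 (embryonic day) mouse hearts by bulk paired-end RNA sequencing of the whole dissected heart. The 10 genes, Sln, Pln, Atp2a2, Ryr2, Casq2, Trdn, Jph2, Slc8a1, Hrc and Asph, were listed by symbol out of 25239 gene rows of the count table, and all 10 of the 10 passed the filter on low counts, as did 15046 genes in all. The list was built around Sln, which was itself selected on its higher level in these same libraries, so values of Sln are given as a description with no test. The other 9 genes were tested together with all genes.

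The 37 libraries came from a cross that gave 4 genotypes. Fathers carried Stra8-iCre, a recombinase active in the male germ line, with Nipbl Flox/+. The study's design text names sperm with the floxed allele, which it counts as wild-type, and sperm with the Nipbl FIN null allele. Mothers were Isl1 Cre/+, in which a Cre gene takes the place of a working Isl1 allele, so every Isl1 +/- embryo also carries Cre at Isl1. Libraries labelled Nipbl +/+; Isl1 +/+ are called wild-type here (n = 10). The others were Isl1 +/- with Nipbl +/+ (n = 9), Nipbl +/- with Isl1 +/+ (n = 9), and Nipbl +/-; Isl1 +/-, called the double heterozygote (n = 9). Nipbl encodes the loader of cohesin, the ring complex that folds chromosomes into loops; the Isl1 protein is a transcription factor found in heart progenitor cells. Each library also carries a set number after the letters IVF in its description label, which does not say what the number marks. Sets 2, 5 and 6 held all 4 genotypes, set 1 held 3 wild-type and 3 Isl1 +/- libraries, and set 7 held only replicate 2 of the double heterozygote. Because set number was a term of the fit, that library did not inform the fitted comparisons, and those of the double heterozygote rest on 8 libraries. Nothing in the labels says whether libraries came from separate litters or from pooled hearts, so p-values measure the spread between these libraries.

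Each heartbeat starts when calcium enters the muscle cell through channels of the surface membrane and opens the ryanodine receptor, Ryr2, which releases a far larger store from the sarcoplasmic reticulum. Between beats the pump SERCA2, encoded by Atp2a2, returns calcium to that store, and the exchanger NCX1, encoded by Slc8a1, sends the rest out of the cell. Sarcolipin and phospholamban (Pln) are very short membrane proteins that bind the pump and restrain it. Sarcolipin is known from atrial muscle and slow skeletal muscle, and phospholamban from ventricular muscle.

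The coding sequences of the 2 pump inhibitors are shown because their size is what sets them apart from the other genes and because the counts of one of them carry the main description. They were read from GENCODE M21 transcripts of GRCm38 and are written 5′ to 3′ with the start and stop codons in capitals. The Sln reading frame has 96 bases and 31 codons before the stop and lies on the plus strand at chr9:53853473-53853568. The Pln frame has 159 bases and 52 codons before the stop, on the plus strand at chr10:53343864-53344022.
Sln-201: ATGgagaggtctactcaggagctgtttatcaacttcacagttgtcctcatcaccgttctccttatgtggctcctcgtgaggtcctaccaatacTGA
Pln-201: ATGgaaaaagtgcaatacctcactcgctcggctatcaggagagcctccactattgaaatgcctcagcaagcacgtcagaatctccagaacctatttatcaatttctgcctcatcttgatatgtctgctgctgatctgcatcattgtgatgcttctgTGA

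In the GENCODE M21 annotation of GRCm38 the 2 inhibitor genes span chr9:53850164-53854560 (Sln, plus strand, 2 exons) and chr10:53337667-53345987 (Pln, plus strand, 3 exons after merging transcripts). The pump and transport genes lie at chr5:122453513-122502225 (Atp2a2, minus strand) and chr17:81373105-81738377 (Slc8a1, minus strand). The release channel and its scaffold lie at chr13:11553102-12106945 (Ryr2, minus strand) and chr2:163336242-163397993 (Jph2, minus strand). Genes of proteins in the reticulum lie at chr3:102086415-102146514 (Casq2, plus strand), chr7:45335290-45338974 (Hrc, plus strand), chr10:33080554-33476709 (Trdn, plus strand) and chr4:9448069-9669344 (Asph, minus strand). Counts are given per gene, so the values do not separate coding exons from untranslated ones.

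Total depth ran from 23.4 to 51.0 mega-counts (1 mega-count is 1e+06 counted reads) per library, with a median of 36.2. No 2 libraries of a genotype agreed within sampling noise (153 pairs, smallest chi-square per degree of freedom 7.19). The level of Nipbl, in CPM (counts per mega-count of library, scaled by TMM), was 60.0 in wild-type, 61.5 in Isl1 +/-, 39.3 in Nipbl +/- and 38.1 in the double heterozygote, as means. The library labelled Nipbl +/- replicate 2 was at 72.4 CPM, against its label, and stood apart in several of the calcium genes, so values of the genes where it is extreme are also given without it. Isl1 means were 7.37, 6.28, 13.0 and 9.50 CPM in the same order. The Isl1 level did not bear out the Isl1 +/- labels, with log2 changes of -0.20 in Isl1 +/- (adjusted p 0.877, edgeR) and 0.32 in the double heterozygote (adjusted p 0.591), and it was called higher in Nipbl +/- (0.79, adjusted p 0.0252). Whether the counted exons include those the Cre allele replaces is not given in the sources used here. Heart muscle markers defined the tissue: the summed level of 10 genes of all cardiomyocytes lay between 22814 and 34359 CPM. Group means of this sum were 29380, 27503, 25975 and 26472 CPM in the same order. Against wild-type 0 of the 10 passed in any genotype, where 0%, 1.71% and 2.6% of all genes passed. Their median log2 changes were -0.14, -0.12 and -0.10 in Isl1 +/-, Nipbl +/- and the double heterozygote. In bulk tissue, fewer cells of a type and less RNA per cell cannot be told apart.

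Sarcolipin was low in every genotype and was higher, on average, in each heterozygote than in wild-type. The 10 wild-type hearts gave raw counts of 11, 1, 23, 0, 9, 21, 33, 24, 45 and 27 in replicates 1 to 10. Isl1 +/- hearts gave 54, 27, 25, 75, 82, 54, 37, 22 and 48 in replicates 1 to 9. Most wild-type libraries, 8 of 10, had fewer than 30 reads of Sln, and so did 3 of 9 Isl1 +/- libraries. Nipbl +/- hearts gave 28, 4, 69, 84, 77, 67, 93, 81 and 169, and the 4 belongs to the library labelled replicate 2. Double heterozygotes gave 31, 40, 77, 80, 101, 120, 58, 118 and 64. Here 2 of 9 Nipbl +/- libraries and 0 of 9 double heterozygous libraries had fewer than 30 reads. Summed over a group, wild-type had 194 reads of Sln, Isl1 +/- 424, Nipbl +/- 672 and the double heterozygote 689, from summed depths of 329, 333, 340 and 312 mega-counts.

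After scaling, wild-type hearts had 0.633 ± 0.528 CPM of Sln (SD, n = 10) and Isl1 +/- hearts 1.28 ± 0.605 CPM (SD, n = 9). It stood at 1.97 ± 1.23 CPM in Nipbl +/- (SD, n = 9), or 2.20 ± 1.09 without the library labelled replicate 2 (SD, n = 8), and at 2.21 ± 1.04 CPM in the double heterozygote (SD, n = 9). The groups overlapped in each of these cases. Wild-type libraries ran from 0 to 1.66 CPM, and the 0 allows up to 3 reads, or 0.119 CPM, in that library, counting error only. Isl1 +/- ran from 0.636 to 2.29, Nipbl +/- from 0.109 to 4.40 and the double heterozygote from 0.834 to 4.45 CPM. Above the highest wild-type library lay 2 of 9 Isl1 +/-, 6 of 9 Nipbl +/- and 6 of 9 double heterozygous libraries, while 9, 8 and 9 of 9 lay above the wild-type mean.

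**Figure D1:**
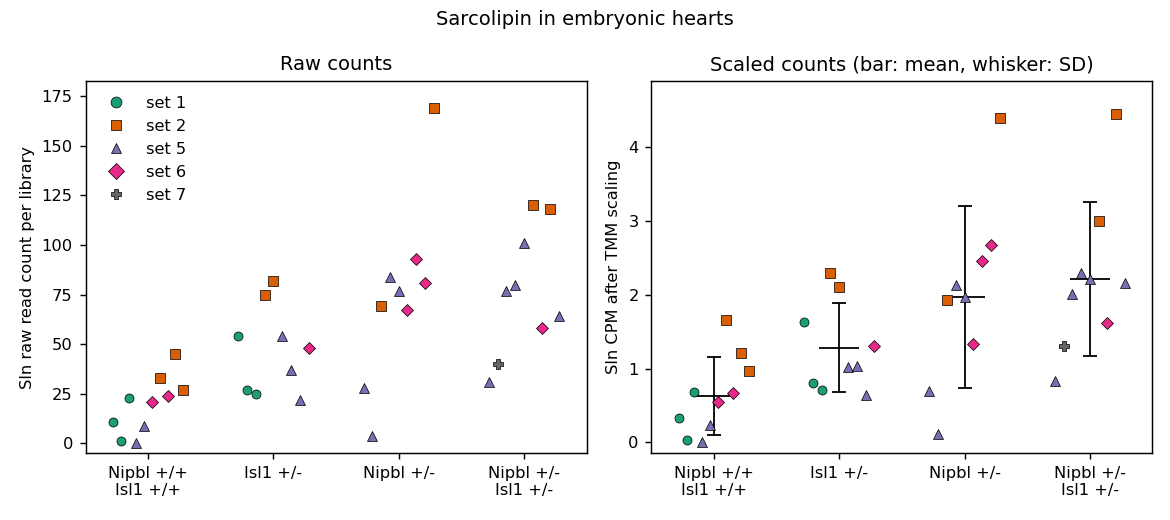
Sln in each library by genotype, as raw read counts on the left and as CPM after TMM scaling on the right; each point is a library, its colour and shape give the set number, and on the right the bar is the group mean and the whisker the SD. Wild-type libraries lie between 0 and 45 reads and the 3 heterozygous groups reach 82, 169 and 120 reads, with overlap between all groups.

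With set number in the model, the log2 change of Sln against wild-type was 1.33 (SE 0.39, 2.51-fold) in Isl1 +/-, 1.84 (SE 0.40, 3.58-fold) in Nipbl +/- and 2.23 (SE 0.42, 4.69-fold) in the double heterozygote. The same differences of mean log2 CPM were read within single sets, as a description of the libraries on which Sln was selected. Isl1 +/- exceeded wild-type by 1.82, 0.79, 2.88 and 1.03 in sets 1, 2, 5 and 6. Nipbl +/- exceeded it by 1.19, 2.76 and 1.68 in sets 2, 5 and 6 (3.56 in set 5 without the library labelled replicate 2), and the double heterozygote by 1.51, 3.87 and 1.33. Set 5 gave the widest differences in all 3 cases, and its 2 wild-type libraries held 0 and 9 reads. The size of the change differed with the sets included, from 1.62 in the double heterozygote without set 5 to 2.67 without set 2. Leaving out any single library kept the 3 values between 1.18 and 1.49, 1.68 and 1.97, and 2.04 and 2.36. These ranges, and the SE values of Sln here and below, rest on the libraries on which Sln was selected and are no test.

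The double heterozygote was set beside each single heterozygote, and the order of the 4 groups was then read from these differences. Against Isl1 +/- its log2 change in Sln was 0.90 (SE 0.41, 1.87-fold), with 0.72, 0.99 and 0.30 within sets 2, 5 and 6. Against Nipbl +/- it was 0.39 (SE 0.38, 1.31-fold), and the within-set values were 0.32, 1.10 and -0.34, with 0.31 in set 5 without the library labelled Nipbl +/- replicate 2. Without set 5 the difference was -0.044, and without the library labelled Nipbl +/- replicate 2 it was 0.18. By mean level the order was wild-type, Isl1 +/-, Nipbl +/- and the double heterozygote, and the means of Isl1 +/- and Nipbl +/-, and of Nipbl +/- and the double heterozygote, differed by less than the SD of the higher group. Departure of the double heterozygote from the sum of both single changes was -0.94 on the log2 scale (SE 0.53), and the mean change with Nipbl loss over both Isl1 genotypes was 1.37 (SE 0.31).

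The log2 values of Sln spread more between libraries of a group than those of most genes did. Its residual SD after genotype and set was 0.95 on the log2 scale, above 98.6% of all genes tested. The other 9 genes ranged from 0.13 for Jph2 to 0.39 for Casq2. Sln had 0 to 169 reads per library and the other 9 genes 257 to 121070, so counting error at low counts enters this comparison. The 2 highest libraries for Sln by scaled level were replicate 8 of the double heterozygote at 4.45 CPM and Nipbl +/- replicate 9 at 4.40 CPM. Replicate 8 of the double heterozygote also had the highest summed level of 8 atrial genes, 15825 CPM. Nipbl +/- replicate 9 had the most reads of the skeletal muscle regulators Myod1 (45 reads, next highest library 21) and Myog (33, next 7), and of the liver genes Afp (11560, next 500) and Alb (989, next 64). Its summed level of the 11 skeletal muscle markers, 109 CPM, lay inside the wild-type range of 103 to 205 CPM. Without that library the change in Nipbl +/- was 1.75 (SE 0.43), and without replicate 8 of the double heterozygote the change there was 2.23 (SE 0.46).

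Since Sln is made by atrial and skeletal muscle, the markers of those tissues were read beside it. Of 8 atrial genes, 0 passed the test in Isl1 +/- (0% of all genes). In Nipbl +/- (1.71% of all genes) and in the double heterozygote (2.6% of all genes) 1 passed, Kcnj3. It rose by 0.53 on the log2 scale in Nipbl +/- (adjusted p 9.71e-04, edgeR) and by 0.37 in the double heterozygote (adjusted p 0.0243, edgeR). A single call among 8 genes is no result about the list. Kcnj3 encodes a potassium channel of atrial and pacemaker cells. Its first call held in all 50 alternatives, and the second was lost in 10, among them 6 with a single library left out (adjusted p up to 0.0770). Wild-type hearts had 15.9 ± 2.44 CPM of Kcnj3 (SD, n = 10), beside 24.4 ± 3.71 in Nipbl +/- (SD, n = 9) and 22.3 ± 4.30 in the double heterozygote (SD, n = 9). The list read differently by measure. Its median log2 change over the 8 genes was 0.04 in Isl1 +/-, 0.30 in Nipbl +/- and 0.17 in the double heterozygote, and the mean log2 CPM over the 8 genes was 7.72 ± 0.29 in wild-type (SD, n = 10) and 7.78 ± 0.14, 7.94 ± 0.21 and 7.88 ± 0.20 in those genotypes (SD, n = 9 each). The summed level, in which abundant genes weigh most, ran from 6860 to 14905 CPM in wild-type, 7501 to 11780 in Isl1 +/-, 6072 to 14130 in Nipbl +/- and 6841 to 15825 in the double heterozygote, with means of 10134, 9182, 9011 and 9248 CPM.

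Skeletal muscle markers were summed over 11 genes, of which 6 passed the filter. The sums ran from 103 to 205 CPM in wild-type, 99.0 to 171 in Isl1 +/-, 68.4 to 129 in Nipbl +/- and 80.4 to 166 in the double heterozygote. The lineage regulator Myod1 was at a median of 0 reads in all 4 groups. Of the 6 skeletal muscle genes tested, 0 passed in Isl1 +/- (0% of all genes). In Nipbl +/- 1 fell (1.71% of all genes), and in the double heterozygote 1 fell and 1 rose (2.6% of all genes). Tnni2, a fast troponin subunit, fell in Nipbl +/- (log2 change -1.11, edgeR) and in the double heterozygote (-0.92), and Actn3, a fast fibre alpha-actinin, rose in the latter (0.68). Of 7 ventricular genes tested, 0 passed in Isl1 +/- (0% of all genes), 2 in Nipbl +/- (1.71% of all genes), where Mycn and Irx4 fell, and 3 in the double heterozygote (2.6% of all genes), where Mycn, Irx4 and Hey2 fell. Mycn passed in all 50 alternatives in both genotypes, while Irx4 was lost in 11 and 8 of them, Hey2 in 15, and Tnni2 in 1 and 3. Actn3 was lost in 2, without set 2 and without set 5 (adjusted p up to 0.201). With a score of heart muscle markers as a covariate the Sln changes were 1.20, 1.74 and 2.11 in the same order of genotypes, and with a score of red cell markers 1.13, 1.94 and 2.05. Scores of atrial or skeletal muscle markers were not fitted, and what part other cell types have in the Sln values was not tested.

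Even at its highest, Sln was a small fraction of the pump inhibitors measured. Per kilobase of merged exon, wild-type hearts had 0.480 ± 0.401 CPM of Sln, 103 ± 27.2 of Pln and 283 ± 47.9 of Atp2a2 (SD, n = 10), so Pln was 215 times and Atp2a2 590 times the level of Sln. Double heterozygotes had 1.68 ± 0.793 CPM per kilobase of Sln and 98.3 ± 9.17 of Pln (SD, n = 9). The remaining small proteins of this family were read from a list: 1810037I17Rik (another-regulin), Strit1 (DWORF), Mrln (myoregulin) and Smim6 (endoregulin). 1810037I17Rik stood at 143 ± 48.7 CPM per kilobase in wild-type, above Pln, while Smim6 was at 0.143 ± 0.114 and Mrln at 0.0179 ± 0.0209 (SD, n = 10). Only 1810037I17Rik and Strit1 passed the filter, and 0 of these 2 passed the test in any comparison. Over all genes 0% to 4.02% passed, so this count is no result about the 2 genes. The log2 changes of 1810037I17Rik were -0.35 (SE 0.19), -0.21 (SE 0.20) and -0.24 (SE 0.21) in Isl1 +/-, Nipbl +/- and the double heterozygote. Strit1, whose product competes with the inhibitors for the pump, held only 2 to 16 reads per library.

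None of the other 9 calcium genes passed the test in any of the 8 comparisons, by edgeR or by DESeq2. Over all genes, 0% passed in Isl1 +/- against wild-type, 1.71% in Nipbl +/-, 2.6% in the double heterozygote, 0.957% in the double heterozygote against Isl1 +/-, 0% against Nipbl +/-, 0% for the interaction, 4.02% for Nipbl loss averaged over both Isl1 genotypes and 0.173% for Isl1 loss averaged over both Nipbl genotypes. A count of 0 of 9 is near these background shares and is no result about the 9 genes. At an unadjusted p under 0.05 there were 0 of 9 in Isl1 +/- (5.89% of all genes), 0 in Nipbl +/- (15.1%), 2 in the double heterozygote (11.6%), and 0 against each single heterozygote (7.49% for Isl1 +/- and 9.01% for Nipbl +/-). The interaction had 0 (2.73%), and the averaged losses had 1 each (14.9% for Nipbl and 12.2% for Isl1). The 2 genes in the double heterozygote were Casq2 and Hrc.

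The 9 genes ranged in log2 change from -0.34 to 0.46 in the double heterozygote, and less widely in both single heterozygotes. Their median log2 change was -0.00 in Isl1 +/- (all genes -0.00), 0.06 in Nipbl +/- (all genes 0.01) and -0.08 in the double heterozygote (all genes -0.00). Their median absolute change was 0.06, 0.11 and 0.11, against 0.09, 0.11 and 0.10 over all genes. The 95% intervals of all 9 lay between -0.47 and 0.58 in Isl1 +/-, -0.55 and 0.55 in Nipbl +/-, and -0.56 and 0.82 in the double heterozygote. In simulated counts with the same depths, the fit recovered 50.7% of genes changed by 0.5 on the log2 scale in the double heterozygote and 85.1% of those changed by 1, so smaller changes of these 9 genes could have gone undetected.

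**Figure D2:**
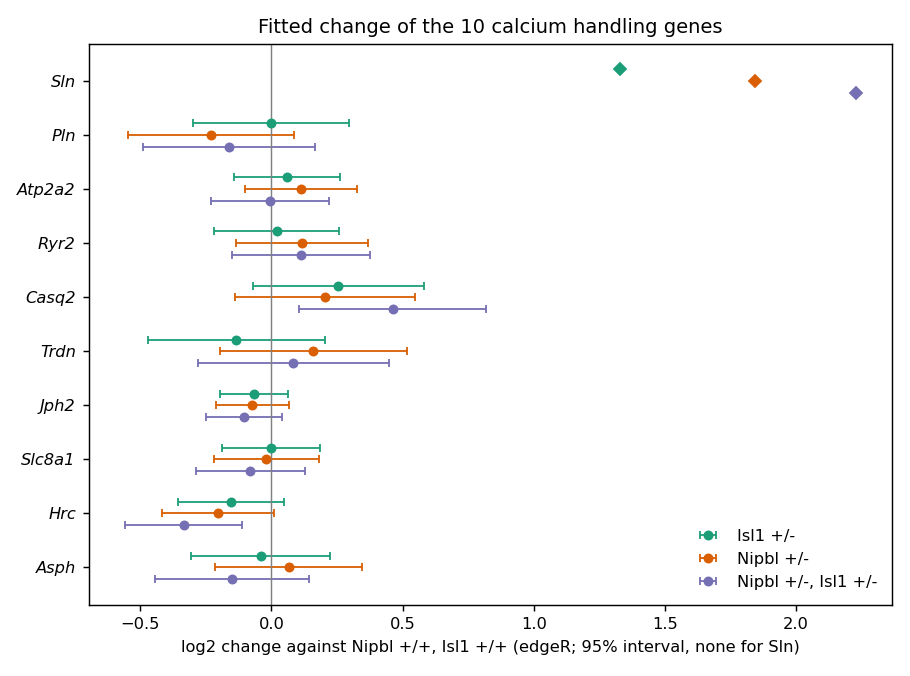
Log2 change against wild-type of the 10 genes in Isl1 +/- (green), Nipbl +/- (orange) and the double heterozygote (purple); points are edgeR estimates, bars are 95% intervals, and Sln is drawn as diamonds with no interval. Sln lies at 1.33, 1.84 and 2.23, while every other estimate lies between -0.34 and 0.46.

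The pump itself, Atp2a2, and its inhibitor Pln were among the deeply measured genes. Atp2a2 ran from 1365 to 2255 CPM in wild-type (median 1623), 1354 to 2239 in Isl1 +/- (median 1813), 1414 to 3306 in Nipbl +/- (median 2202) and 1185 to 2247 in the double heterozygote (median 2104). The highest value, 3306, is the library labelled Nipbl +/- replicate 2, and the groups overlapped. The log2 changes were 0.06 (SE 0.10), 0.11 (SE 0.11) and -0.01 (SE 0.11), smaller than or about equal to their errors, and the value in Nipbl +/- was 0.03 (SE 0.09) without that library. The group medians do not take set number into account, whereas the fitted values do.

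Pln ran from 185 to 433 CPM in wild-type (median 278), 212 to 345 in Isl1 +/- (median 276), 81.2 to 326 in Nipbl +/- (median 268) and 245 to 315 in the double heterozygote (median 260). The 81.2 is again the library labelled Nipbl +/- replicate 2, and the next library of that genotype stood at 249. Log2 changes of Pln were -0.00 (SE 0.15), -0.23 (SE 0.16) and -0.16 (SE 0.16), and without that library the value in Nipbl +/- was -0.11 (SE 0.10). The log2 ratio of Pln to Atp2a2 CPM was -2.62 ± 0.48 in wild-type (SD, n = 10), -2.72 ± 0.17 in Isl1 +/-, -3.08 ± 0.91 in Nipbl +/- and -2.84 ± 0.38 in the double heterozygote (SD, n = 9 each), differences within 1 SD of a group. Without the library labelled replicate 2 the Nipbl +/- ratio was -2.80 ± 0.34 (SD, n = 8). Of the Pln exons, 59.6% are overlapped by Gm47644 and 5.11% by Cep85l on the opposite strand, and without a stated strand setting reads of both strands cannot be told apart.

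Inside the reticulum, calcium is held by calsequestrin-2 (Casq2), which also tunes the release channel. Casq2 ran from 9.90 to 24.2 CPM in wild-type (median 20.1), 12.1 to 32.0 in Isl1 +/- (median 21.1), 7.02 to 36.8 in Nipbl +/- (median 24.9) and 21.4 to 30.6 in the double heterozygote (median 28.4). Of the 9 double heterozygous libraries, 8 lay above every wild-type library and 9 above the wild-type mean, and the 7.02 belongs to the library labelled Nipbl +/- replicate 2. The log2 changes were 0.25 (SE 0.16), 0.20 (SE 0.17) and 0.46 (SE 0.18) in Isl1 +/-, Nipbl +/- and the double heterozygote. The last had an unadjusted p of 0.0125 and an adjusted p of 0.217 (edgeR), and so did not pass. Within sets 2, 5 and 6 the double heterozygote exceeded wild-type by 0.35, 0.36 and 0.53.

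Whether Casq2 passed depended on single choices. Without the library labelled Nipbl +/- replicate 2, the change in the double heterozygote was 0.42 (SE 0.13, adjusted p 0.0425, edgeR), in a fit in which 5.57% of all genes passed that comparison. Across the alternatives the adjusted p ran from 0.00373 to 0.490. In Nipbl +/- the value without that library was 0.33 (SE 0.12, adjusted p 0.171), where 2.72% of all genes passed. Within set 5, which holds that library, the difference of Nipbl +/- from wild-type was -0.45 on the log2 scale, and -0.08 without it. Sets 2 and 6 gave 0.36 and 0.73, and the fit without set 5 gave 0.55 (adjusted p 0.0341).

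Hrc encodes the histidine-rich calcium binding protein, another reticulum protein, which binds both the pump and triadin. It ran from 134 to 264 CPM in wild-type (median 194), 160 to 221 in Isl1 +/- (median 175), 127 to 285 in Nipbl +/- (median 164) and 136 to 209 in the double heterozygote (median 167). Below the wild-type mean of 198 CPM lay 8 of 9 libraries of each heterozygous genotype and 6 of 10 wild-type libraries, and the groups overlapped. The log2 changes were -0.15 (SE 0.10), -0.20 (SE 0.11) and -0.34 (SE 0.11). The change in the double heterozygote had an unadjusted p of 0.00442 and an adjusted p of 0.116 (edgeR). Within sets 2, 5 and 6 it was -0.14, -0.42 and -0.45, and Nipbl +/- gave -0.18, -0.23 and -0.31, with -0.42 in set 5 without the library labelled replicate 2.

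Hrc also hung on single libraries. The library labelled Nipbl +/- replicate 2 held the highest Hrc level, 285 CPM, and without it that genotype had 158 ± 13.9 CPM (SD, n = 8). Its fitted change was then -0.30 on the log2 scale, with SE 0.09 and an adjusted p of 0.0538 (edgeR). In that fit Hrc in the double heterozygote was at -0.33 (SE 0.09, adjusted p 0.0241), and for Nipbl loss averaged over both Isl1 genotypes it was at -0.24 (adjusted p 0.0225), with 6.93% of all genes passing. Without wild-type replicate 7, which held the lowest wild-type level at 134 CPM, the change in the double heterozygote was -0.39 (adjusted p 0.0357). That library had the highest summed red cell marker level, 105392 CPM, where the other 36 ran from 483 to 53576. Over all alternatives the adjusted p of this change ran from 0.0239 to 0.724.

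Trdn and Asph encode proteins that anchor calsequestrin at the release channel, triadin and junctin. Trdn ran from 48.8 to 93.2 CPM in wild-type and 49.7 to 80.7 in Isl1 +/-, and 36.8 to 151 and 52.6 to 136 in Nipbl +/- and the double heterozygote. A single library in each of the last 2 groups made the top of the range, Nipbl +/- replicate 8 and double heterozygote replicate 8, and the next highest were at 82.0 and 77.9 CPM. Those 2 libraries also had high summed atrial markers, 14130 and 15825 CPM. Trdn changed by -0.13 (SE 0.17), 0.16 (SE 0.17) and 0.08 (SE 0.18) in the 3 genotypes, and without Nipbl +/- replicate 8 the value in Nipbl +/- was -0.01 (SE 0.14). Without the library labelled replicate 2, the lowest of that genotype, it was 0.24 (SE 0.17). In the double heterozygote it was -0.14 (SE 0.17) without replicate 8.

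Asph is a composite gene that also encodes an aspartyl hydroxylase, so its reads are not those of junctin alone, and 14.3% of its exon bases are shared with Clvs1 on the opposite strand. Asph levels ran from 92.3 to 146 CPM in wild-type, 102 to 147 in Isl1 +/- and 83.1 to 156 in the double heterozygote. In Nipbl +/- they ran from 95.6 to 146 CPM apart from 329 in the library labelled replicate 2. The log2 changes were -0.04 (SE 0.13), 0.06 (SE 0.14) and -0.15 (SE 0.14), and the middle value was -0.14 (SE 0.07) without that library.

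The release channel and the proteins that place it opposite the surface membrane gave no call in any genotype. For Ryr2, wild-type hearts had 211 ± 45.5 CPM (SD, n = 10), with 220 ± 31.8 in Isl1 +/-, 256 ± 84.5 in Nipbl +/- and 265 ± 56.1 in the double heterozygote (SD, n = 9 each), with fitted log2 changes of 0.02 (SE 0.12), 0.11 (SE 0.12) and 0.11 (SE 0.13). Without the library labelled Nipbl +/- replicate 2, the highest for Ryr2, that genotype had 239 ± 70.9 CPM (SD, n = 8) and a change of 0.04 (SE 0.11). Jph2, the junctophilin that bridges reticulum and surface membrane, was the steadiest of the 10, at 389 ± 44.0, 378 ± 39.7, 391 ± 52.8 and 387 ± 46.1 CPM, and changed by -0.07 (SE 0.06), -0.07 (SE 0.07) and -0.11 (SE 0.07). The exchanger gene Slc8a1 stood at 788 ± 171, 802 ± 161, 896 ± 216 and 876 ± 219 CPM. Its changes of -0.00 (SE 0.09), -0.02 (SE 0.10) and -0.08 (SE 0.10) were below or about equal to the error. All adjusted p-values of these 3 genes were above the threshold in the 8 comparisons.

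**Figure D3:**
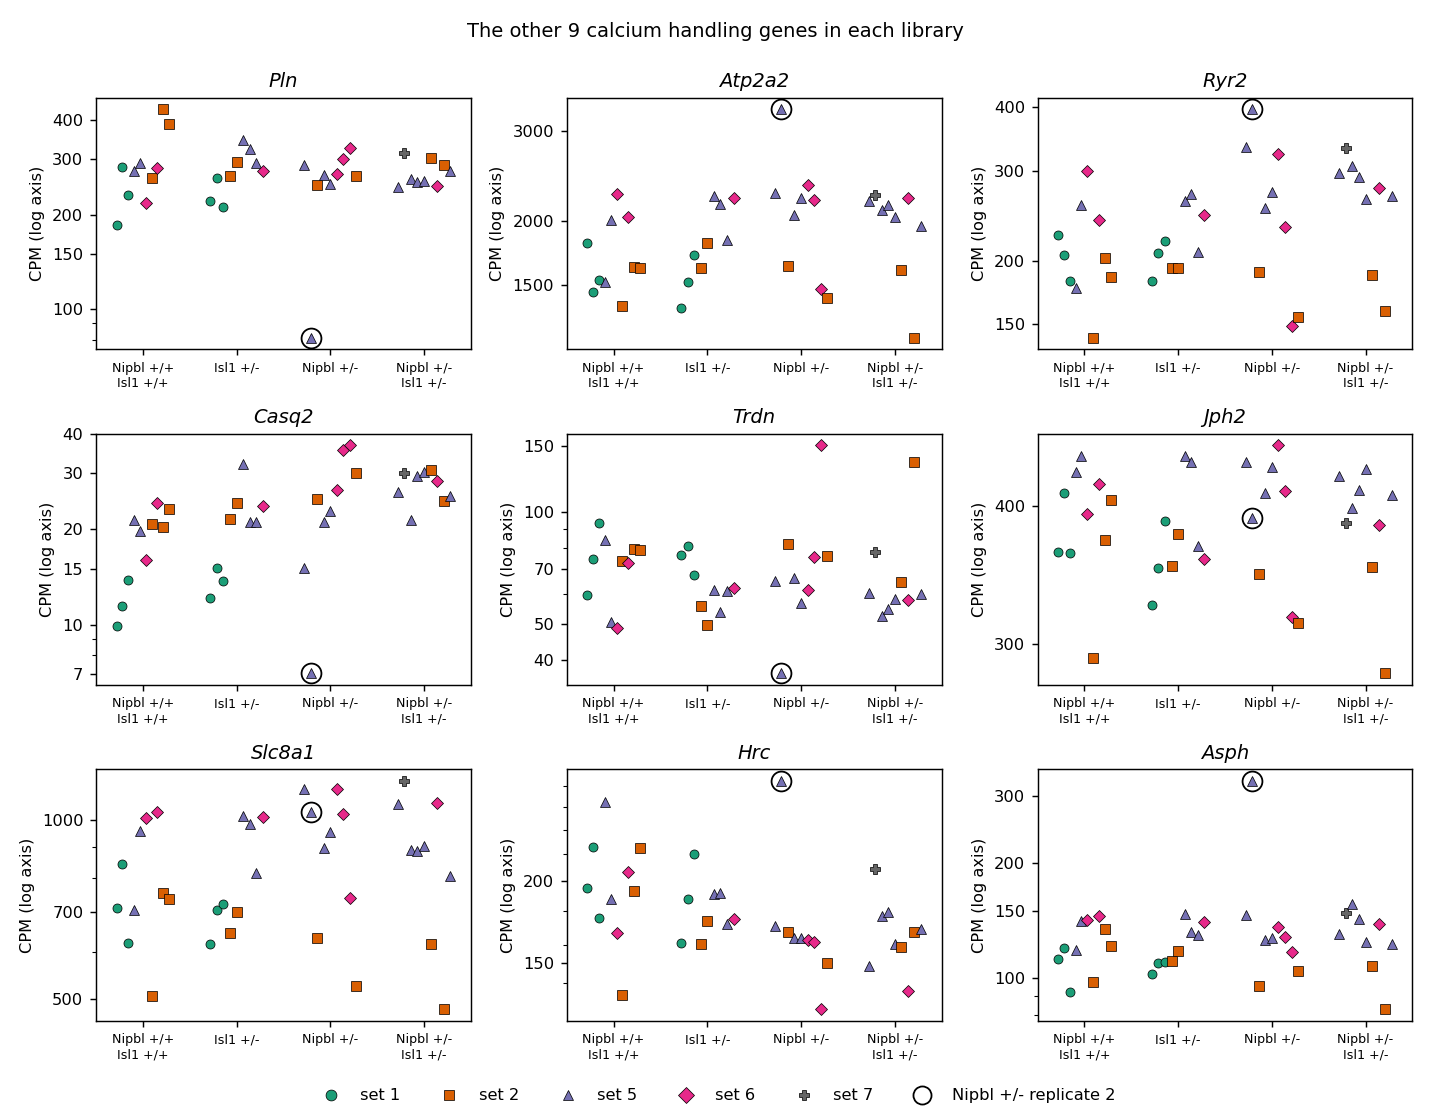
CPM on a log axis of the 9 genes other than Sln in each library, by genotype; colour and shape give the set number, and the ring marks the library labelled Nipbl +/- replicate 2. That library is the lowest for Pln (81.2 CPM), Casq2 (7.02) and Trdn (36.8) and the highest for Atp2a2 (3306), Ryr2 (396), Hrc (285) and Asph (329).

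The library labelled Nipbl +/- replicate 2 thus stood at an end of the range in 7 of the 9 genes. It lay outside the other 36 libraries for the lists of related genes as well. Surface membrane calcium genes summed to 1898 CPM there against 569 to 1069 in the others, and other reticulum calcium genes to 5122 against 3484 to 4298. Mitochondrial calcium genes summed to 303 against 379 to 588 CPM. Its heart muscle markers, at 26528 CPM, were inside the range of the others, and its red cell markers, at 483 CPM, were the lowest. It was also below the other 36 for the sums of atrial markers (6072 against 6841 or more), skeletal muscle markers (68.4 against 75.8 or more) and smooth muscle markers (3077 against 3341 or more). The same held for cushion mesenchyme markers (147 against 160 or more) and for neuron and neural crest markers (16.7 against 18.6 or more). Their part in its 4 reads of Sln was not tested.

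Set number was tested as a term over all sets at once and genotype only in single comparisons, so their counts cannot be compared. The set term passed the test in 6 of the 9 genes, Slc8a1 (adjusted p 1.08e-05, edgeR), Atp2a2 (0.0011), Ryr2 (0.00133), Jph2 (0.00315), Casq2 (0.00327) and Asph (0.0195), where 38.2% of all genes passed. Pln, Trdn and Hrc did not pass (adjusted p 0.191, 0.112 and 0.0898). Casq2 was lowest in set 1, at 9.90 to 13.9 CPM in 3 wild-type and 12.1 to 15.1 in 3 Isl1 +/- libraries, whereas wild-type libraries of sets 2, 5 and 6 ran from 16.0 to 24.2. Slc8a1 went another way: wild-type means were 725 and 666 CPM in sets 1 and 2, and 832 and 1020 in sets 5 and 6. Sln differed between sets as well, with wild-type means of 0.349, 1.28, 0.116 and 0.610 CPM in sets 1, 2, 5 and 6.

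**Figure D4:**
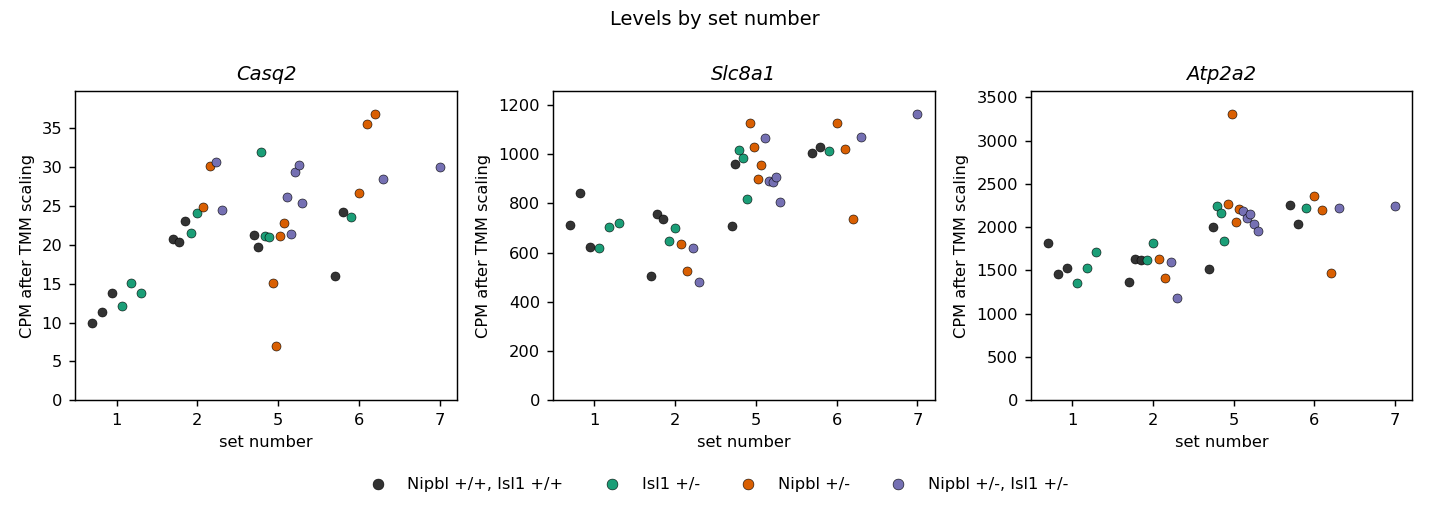
CPM of Casq2, Slc8a1 and Atp2a2 by set number; each point is a library and its colour gives the genotype. The 6 libraries of set 1 have the 9.90 to 15.1 CPM of Casq2, and Slc8a1 and Atp2a2 are lower in sets 1 and 2 than in sets 5 and 6 for most libraries.

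Comparing mutants with each other added no call among the 9 genes. The smallest adjusted p was 0.912 for the double heterozygote against Isl1 +/-, 0.645 against Nipbl +/- and 0.999 for the interaction (edgeR). Casq2 had log2 differences of 0.21 (SE 0.18) and 0.26 (SE 0.17) in the first 2, and Hrc had -0.18 (SE 0.11) and -0.13 (SE 0.11). These comparisons share libraries with those against wild-type and are not further evidence.

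Calcium genes outside the 10 were read from 4 further lists. Of 22 other reticulum genes, 0 passed in Isl1 +/- (0% of all genes), 2 in Nipbl +/- (1.71% of all genes) and 1 in the double heterozygote (2.6% of all genes), all higher, with median log2 changes of 0.04, 0.20 and 0.13. Atp2a1 encodes SERCA1, the pump of fast skeletal muscle. Its wild-type level was 15.9 ± 8.53 CPM (SD, n = 10), beside 19.2 ± 5.36 in Isl1 +/-, 27.4 ± 8.46 in Nipbl +/- and 30.4 ± 8.83 in the double heterozygote (SD, n = 9 each). Wild-type libraries reached 35.1 CPM, so that only 1 of 9 and 4 of 9 libraries of the last 2 groups lay above all of them. Atp2a1 rose by 0.92 in Nipbl +/- (SE 0.22, adjusted p 0.0212, edgeR) and 0.96 in the double heterozygote (SE 0.23, adjusted p 0.0195). Neither call held without wild-type replicate 5 (adjusted p 0.0528 and 0.0543), the first was lost without Nipbl +/- replicate 3 (0.0633) and the second without double heterozygote replicate 6 (0.0509). The call in Nipbl +/- was also lost with no set term, with title numbers in place of set, and without sets 2 and 5 (adjusted p up to 0.319), and that in the double heterozygote without sets 2 and 5 (up to 0.747). Of the Atp2a1 exon bases, 21.9% are shared with Rabep2 on the opposite strand, whose reads cannot be told apart here. Tmem38a, which encodes a potassium channel that balances charge during release, rose by 0.30 in Nipbl +/- (SE 0.07, adjusted p 0.0286), from 72.0 ± 6.18 to 86.6 ± 18.1 CPM. That call was lost in 10 of 50 alternatives. They were leaving out wild-type replicate 5 or 6 or Nipbl +/- replicate 3 (adjusted p up to 0.0806), no set term, title numbers in place of set, either marker score, and leaving out set 1, 2 or 6 (up to 0.180).

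Among the surface membrane genes, Cacnb3 and Orai3 passed against wild-type. Cacnb3, a beta subunit of voltage-gated calcium channels, ran from 22.9 to 31.0 CPM in wild-type, 24.5 to 37.4 in Isl1 +/-, 28.2 to 56.0 in Nipbl +/- and 30.7 to 48.9 in the double heterozygote. In each of the last 2 groups 8 of 9 libraries lay above every wild-type library. Cacnb3 rose by 0.67 in Nipbl +/- (SE 0.10, adjusted p 1.05e-04, edgeR) and 0.57 in the double heterozygote (SE 0.10, adjusted p 6.38e-04), and the double heterozygote exceeded Isl1 +/- by 0.41 (adjusted p 0.0426). The first of these passed in all 50 alternatives, the second in all but the fit without set 2 (0.46, adjusted p 0.0820), and the third was lost in 22 of the 50, 16 of them single libraries left out, with adjusted p up to 0.131 among those. Orai3, a store-operated calcium channel subunit, rose by 0.33 in the double heterozygote (adjusted p 0.0342), a call lost in 24 of 50 alternatives, including 15 single libraries left out. In all, 0 of 20 surface genes passed in Isl1 +/-, 1 in Nipbl +/- and 2 in the double heterozygote, beside the same 0%, 1.71% and 2.6% of all genes. With lists this short, 1 or 2 calls are no result about a list. The pore gene of the main cardiac calcium channel, Cacna1c, had medians of 81.4 CPM in wild-type, 83.8 in Isl1 +/-, 82.8 in Nipbl +/- and 96.1 in the double heterozygote, and was not among the genes that passed.

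Mitochondrial uptake genes (8 tested) and calcium sensing or phosphorylation genes (13 tested) gave 0 calls in the 3 genotypes against wild-type. Over all genes 0%, 1.71% and 2.6% passed, so 0 calls are no result about these 2 lists. Their median log2 changes were -0.09, -0.02 and -0.09 for the first and -0.05, -0.06 and -0.13 for the second, in Isl1 +/-, Nipbl +/- and the double heterozygote. Of 6 epicardial markers, 0 passed in Isl1 +/- (0% of all genes) and 1 in Nipbl +/- (1.71% of all genes), where Wt1 rose by 0.31. In the double heterozygote 4 passed (2.6% of all genes): Wt1 (0.53), Upk3b (0.72), Tbx18 (0.38) and Upk1b (0.38) rose. Of the calls in the double heterozygote, Wt1 and Upk3b were each lost in 1 of 50 alternatives, Tbx18 in 6 and Upk1b in 20, and Wt1 in Nipbl +/- in 7. The sum of the 6 ran from 252 to 447 CPM in wild-type, 298 to 529 in Isl1 +/-, 393 to 592 in Nipbl +/- and 491 to 644 in the double heterozygote, and only the last did not overlap wild-type. Of 4 smooth muscle genes tested, 0 passed in Isl1 +/- (0% of all genes), 1 in Nipbl +/- (1.71% of all genes) and 1 in the double heterozygote (2.6% of all genes). Myh11, a smooth muscle myosin, rose by 1.36 and 1.68 in the last 2 genotypes. The first call was lost without set 2 or set 5 and the second without set 5. Acta2 was at -0.22 and -0.18, Cnn1 at -0.08 and -0.06, and Tagln at -0.03 and 0.11, none past the threshold, and the list medians were -0.06 and 0.03. Whether a changed share of such cells enters the calcium gene values was not tested.

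Across the 37 libraries, with the mean of each set removed, the genes whose level was most like that of Sln included Adap1 (Spearman rho 0.85), Csdc2 (0.85), B3gnt9 (0.84) and Spon2 (0.81), out of 12071 genes compared. Without the library labelled Nipbl +/- replicate 2 the rho values of these 4 were 0.84, 0.84, 0.81 and 0.77. Among the calcium genes the values were 0.68 for Casq2, 0.18 for Trdn, -0.05 for Pln, -0.23 for Ryr2, -0.29 for Atp2a2, -0.37 for Jph2, -0.45 for Slc8a1, -0.46 for Asph and -0.62 for Hrc. All points share library, depth and genotype, Sln has few reads, and the values describe these libraries only.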

How the data were processed

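Bulk RNA of hearts from 37 mouse embryo samples at stage E10.5 was sequenced. Per the labels' protocols, the NEB Monarch Miniprep kit yielded total RNA, and NEBNext Ultra II RNA reagents were used to build libraries. The table deposited by the authors holds raw counts, in whole numbers without normalization, and has 1 column per library. STAR, featureCounts and GRCm38/mm10 are named in the submitters' processing notes, with no versions. The annotation, the strand setting and any filter are not given in the sources used here.

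Libraries were grouped by title, and the set number was taken from the description label. Genes were kept by filterByExpr by genotype (minimum count 10, minimum total 15). After TMM scaling, the quasi-likelihood test of edgeR 4.0.16 was run in R 4.3.3 over all 37 libraries; genotype and set were factors. Limma 3.58.1 was loaded by edgeR. Tests were two-sided, with Benjamini-Hochberg adjustment over all 15046 genes and a threshold of 0.05. Log2 CPM used a prior count of 2. The fit was tested on simulated data. Coordinates, exon lengths and coding sequences came from GENCODE M21 (GRCm38).

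The members and lists were chosen with earlier results of these data known. Named genes were the 10 members, up to 4 genes per list and comparison past the threshold, and the 5 genes most like Sln (at least 1 in mean log2 CPM), of which 1 is not reported here. Cacna1c, 1810037I17Rik, Strit1, Mrln, Smim6, Myod1, Myog, Afp and Alb were named after their values were seen. Alternatives were no set term, the title number in place of set, DESeq2 1.42.0, RLE size factors, other filters, 2 surrogate variables (sva 3.50.0), marker scores as covariates, and each set or library left out. Within-set differences, the test of the set term and the within-set values and ratio without Nipbl +/- replicate 2 were chosen after seeing the data. Python 3.11.15, pandas 2.3.3 and matplotlib 3.10.9 were used for tables and plots. Reads carry no molecular identifiers, so a floor of 3 counts covers counting error only.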

Additional observations from a re-analysis of the deposited data

Results flagged for a closer look

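In groups of this size, a value was marked where its gap to the next library was wide for the range of its group. Of 40 groups examined, 7 held such a value, and chance marks about 1 in 20 groups. The library labelled Nipbl +/- replicate 2 accounted for 4 of them: Pln at 81.2 CPM (next library 249), Atp2a2 at 3306 CPM (next 2356), Hrc at 285 CPM (next 171) and Asph at 329 CPM (next 146). That library also had a Nipbl level of 72.4 CPM, against its label. Trdn stood out in replicate 8 of Nipbl +/- at 151 CPM (next 82.0) and in replicate 8 of the double heterozygote at 136 CPM (next 77.9). Jph2 stood out in wild-type replicate 7 at 291 CPM (next 363), the library with the highest red cell marker sum, 105392 CPM.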

How the results depend on the processing

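Counts of calcium handling genes called, of 9, were the same in all 50 alternatives for 5 of the 8 comparisons. They moved in 1 of 50 for Nipbl +/-, and in 4 of 50 each for the double heterozygote and for averaged Nipbl loss, from 0 each time; the cause was not tested. Without set 5, 1 gene passed in Nipbl +/- and 1 for averaged Nipbl loss, Casq2 both times (0.55, adjusted p 0.0341, and 0.40, adjusted p 0.0439, edgeR). With 2 surrogate variables, 3 passed in the double heterozygote, Casq2 (0.50), Hrc (-0.34) and Asph (-0.18), and 2 for averaged Nipbl loss, Trdn (0.22) and Hrc (-0.21). Over all genes, calls in these comparisons were fewer without set 5 and more with 2 surrogate variables, with counts given below. With 1 library left out, the counts of the 9 genes were 0 to 2 in the double heterozygote (1 without wild-type replicate 7, 2 without Nipbl +/- replicate 2) and 0 to 1 for averaged Nipbl loss (without Nipbl +/- replicate 2). Without Nipbl +/- replicate 2, 5.57% and 6.93% of all genes passed in these 2 comparisons. Of 3600 alternative values of these 9 genes, 226 had another sign than the reported one, 0 of them past the threshold in either fit, and the largest was 0.30 in absolute size.

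Title numbers did not pair the libraries: 17 of 54 pairs with the same number correlated above 0.1, and libraries were closest to their own number in 16 of 108 cases. With the replicate block in place of set, Sln changes were 1.38, 1.70 and 2.07 in the 3 genotypes, 1 gene, Casq2, passed in the double heterozygote (0.72, adjusted p 0.0125, edgeR) and 1, Casq2, for averaged Nipbl loss (0.47, adjusted p 0.014). Over all genes, too, that fit gave more calls in both comparisons, with counts given below. The difference in Sln of the double heterozygote from Nipbl +/- was -0.044 without set 5, where the full set of libraries gave 0.39. A filter of at least 10 counts in every library removed Sln and gave no value for it.

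Over all genes, calls in Nipbl +/- (258) were 467 without a set term, 459 by DESeq2, 1854 with 2 surrogate variables, 141 with the heart muscle score, 118, 31 and 124 without sets 1, 2 and 5, and 167 to 410 with 1 library left out. In the double heterozygote (391) they were 610 with the replicate block, 1018 with surrogate variables, 235, 113, 67 and 223 without sets 1, 2, 5 and 6, and 244 to 839 with 1 library left out. Against Isl1 +/- (144) they were 234, 491, then 74, 22, 12 and 80, and 73 to 361, for DESeq2, surrogate variables, sets and libraries. Averaged Nipbl loss (605) gave 1045 without a set term, 993 with the replicate block, 1642 with surrogate variables, 152, 275 and 401 without sets 2, 5 and 6, and 436 to 1044. Averaged Isl1 loss (26) ranged from 0 to 160, Isl1 +/- (0) reached 11 by DESeq2, and surrogate variables gave 136 calls against Nipbl +/- (0). Depth limits the precision of Sln, which had 0 to 169 reads per library.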

Other observations

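The paralogs of the calcium genes, which dominate in skeletal or other tissues of the adult, were set beside the cardiac forms per kilobase of exon, after their values were seen. For calsequestrin the order was the reverse of the adult heart: Casq1, the skeletal muscle form, stood at 211 ± 48.8 CPM per kilobase in wild-type (SD, n = 10), and Casq2, the cardiac form, at 6.61 ± 1.82. The lowest wild-type library for Casq1, 159, was above the highest for Casq2, 8.85. In double heterozygotes Casq1 was at 189 ± 28.1 and Casq2 at 9.99 ± 1.16 (SD, n = 9). Casq1 did not pass the test in any genotype against wild-type.

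The cardiac form was the more abundant of each of the other pairs in wild-type. Atp2a2 was at 283 ± 47.9 CPM per kilobase against 4.58 ± 2.45 for Atp2a1, and Ryr2 at 7.34 ± 1.58 against 0.0506 ± 0.0130 for Ryr1 and 0.326 ± 0.0684 for Ryr3. Jph2 was at 91.5 ± 10.3 against 1.51 ± 0.243 for Jph1, and Slc8a1 at 41.9 ± 9.07 against 0.131 ± 0.0530 for Slc8a3 (SD, n = 10 each).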
